A study of Homo sapiens with 6 samples.

Results

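The genes described here encode the enzymes that add or remove acetyl and methyl groups on histones, together with the enzymes that methylate DNA. They were taken by name, without regard to any measured value: symbols starting HDAC, SIRT, KDM, KMT, SETD, KAT or DNMT, and the Polycomb genes EZH1, EZH2, SUZ12 and EED, with KDM5D and the katanin genes (KATN) set aside. This gave 67 of the 17687 genes measured, each with 1 probe set: 11 HDAC, 7 SIRT, 7 KAT, 8 KMT, 10 SETD, 3 Polycomb, 17 KDM and 4 DNMT genes. KDM1A, EED, SETD1B and KAT14 were not analysed here, since the probe annotation used names no probe set for them.

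Acetyl groups placed on histone tails by lysine acetyltransferases (KAT) loosen chromatin and recruit readers, and unrelated families of deacetylases remove them, the zinc-dependent HDAC enzymes and the NAD-dependent sirtuins. Methyl groups act by position: methylation of H3K4 marks promoters and enhancers, that of H3K36 marks transcribed gene bodies, and that of H3K9, H3K27 and H4K20 is tied to repression and compaction. Each mark has its own methylases (KMT, SETD, EZH) and demethylases (KDM), and the DNMT enzymes set methylation of cytosine in DNA. In neuroblastoma, a tumour of the sympathetic lineage, HDAC and EZH2 inhibitors are known to promote differentiation, as retinoic acid does.

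The study used SH-SY5Y, an established human neuroblastoma line cloned from the line SK-N-SH, grown with all-trans retinoic acid (atRA) over 96 h in all samples. Of the 6 Affymetrix whole-transcript arrays, 3 carry the label 15EN and 3 the label VC (vehicle control), with 1 array of each group at passages 33, 34 and 35 of the titles. The treatment text gives a bioactive compound at 15 µM, the study's title names eurycomanone from Eurycoma longifolia, and the abbreviation 15EN is not spelled out. The labels do not say whether the 3 samples of a group were grown separately. Spread between arrays, all that the p-values measure, may thus be technical in part or whole. Values are log2 signals as deposited, differences are 15EN minus VC, errors beside differences are standard errors of the limma fit, and adjusted p-values are from limma over all 17687 genes. A gene was called at an adjusted p under 0.05.

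Arrays of the VC group correlated at 0.99 to 0.993 over gene probe sets. Among 15EN arrays the correlation was 0.991 between replicates 1 and 2 but 0.978 and 0.979 for replicate 3 against them. Replicate 3 thus stood apart, and results that rest on it are also given without it. Among markers of sympathetic (adrenergic) neuroblastoma cells, the transcription factor TBX2 was at 15.46 to 15.88 on all 6 arrays, and the neuronal gene STMN2 at 12.98 to 13.50 in 15EN and 14.88 to 15.17 in VC. TH, the dopamine-synthesis enzyme, and CHGA, of secretory granules, were dim on all 6, where dim means below the 90th percentile of 612 negative control probe sets (7.41 to 7.99 per array). The mean over the 15 measured adrenergic markers was 10.51 to 10.63 in 15EN and 11.02 to 11.27 in VC, with 1 called higher and 7 lower (3 lower without VC replicate 1, 4 without 15EN replicate 1; 2 higher without 15EN replicate 3, 0 without any other array). Among 13 mesenchymal neuroblastoma markers, PRRX1 and NOTCH3 (called lower) were dim on all 6 arrays. Of the 13, 3 were higher and 5 lower, with 3 lower without 15EN replicate 1 or VC replicate 1 or 3. Their mean was 10.28 to 10.88 in 15EN and 10.43 to 10.81 in VC. For 9 fibroblast markers, PDGFRA and PDGFRB bright and FAP dim, it was 9.43 to 10.08 and 9.85 to 10.19 (0 higher, 2 lower, and 0 lower without 15EN replicate 1 or VC replicate 2 or 3). Of 7 markers of Schwann cells and other glia 6 were dim on all arrays, SOX10 and S100B among them, and of 7 immune markers 5, with PTPRC. Their means were 4.76 to 5.25 in 15EN and 4.89 to 5.08 in VC for glia (0 called) and 6.45 to 6.78 and 6.53 to 6.58 for immune markers (1 higher, ITGAM, itself dim on all arrays, and 0 when either of 15EN replicates 1 and 2 or VC replicates 2 and 3 was left out). Over all genes 12.3% were called higher and 9.09% lower. For adrenergic markers these shares were 6.67% and 46.7%, for mesenchymal 23.1% and 38.5%, and for fibroblast 0% and 22.2%. For glia they were 0% and 0%, and for immune markers 14.3% and 0%. Without 15EN replicate 3, 18.2% of all genes were higher and 12.7% lower, and without any other array 7.36% to 8.47% and 5.48% to 6.86%. In RNA from whole cultures, fewer cells of a type and less RNA per cell cannot be told apart, and the part of these marker shifts in the results below was not tested.

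Of the 67 enzyme genes, 9 were higher and 6 lower in 15EN. The higher ones were the 3 nuclear sirtuins SIRT1, SIRT6 and SIRT7, the acetyltransferases KAT2B and KAT6A, the methylases KMT5B and SETD4, the demethylase KDM4D and the deacetylase HDAC9. The lower ones were the deacetylases HDAC1, HDAC5 and HDAC6, the Polycomb methylase EZH2 and the demethylases KDM2B and KDM4A. These calls are 22.4% of the enzyme genes, against 21.4% of all genes, 13.4% higher against 12.3% and 8.96% lower against 9.09%. The share of calls was thus close to that of all genes, and what follows concerns which enzymes differed. The 2 sets were unlike in brightness, with 14.9% of the enzyme genes and 44% of all genes dim on all 6 arrays. Without the dimmest tercile, 26.2% of the enzyme genes were called, against 33.3% of all genes. All 15 called genes had no overlap between the groups, and hence the same sign in the 3 same-numbered differences. Being chosen by p in the same arrays favours both, so neither adds support. Over all genes, 9142 of 17687 had the same sign. Without moderation of the variances, 7 of the 15 calls were lost, those of EZH2 (adjusted p = 0.0541), HDAC9 (0.0589), SETD4 (0.0627), HDAC5 (0.0745), KAT2B (0.0775), KDM4D (0.0845) and SIRT6 (0.142). A further 14 of the 52 uncalled genes also did not overlap, which makes 29 of 67 (43.3%) against 36.3% of all genes.

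The median difference over the enzyme genes was 0.17, against 0.01 over all genes, but 0.13, 0.34 and -0.11 in replicates 1, 2 and 3 (all genes -0.03, -0.01 and 0.08). Its excess of 0.16 over the median gene was 0.07 without 15EN replicate 2 and 0.29 without 15EN replicate 3. After quantile normalization the excess over the median gene was 0.06 and after removal of a brightness trend 0.04, and under both settings 9 genes were higher and 9 lower, with HDAC8, KDM1B and KMT2E added among the lower. The 4 hybridization controls were dimmer in 15EN, and scaling arrays to them raised the median difference of all genes to 0.88, and directions here are relative to the median gene for that reason. Against 0 on that scale, 49 enzyme genes were higher and 0 lower, and 96.5% of the calls over all genes were higher, against 57.5% as deposited.

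**Figure D1:**
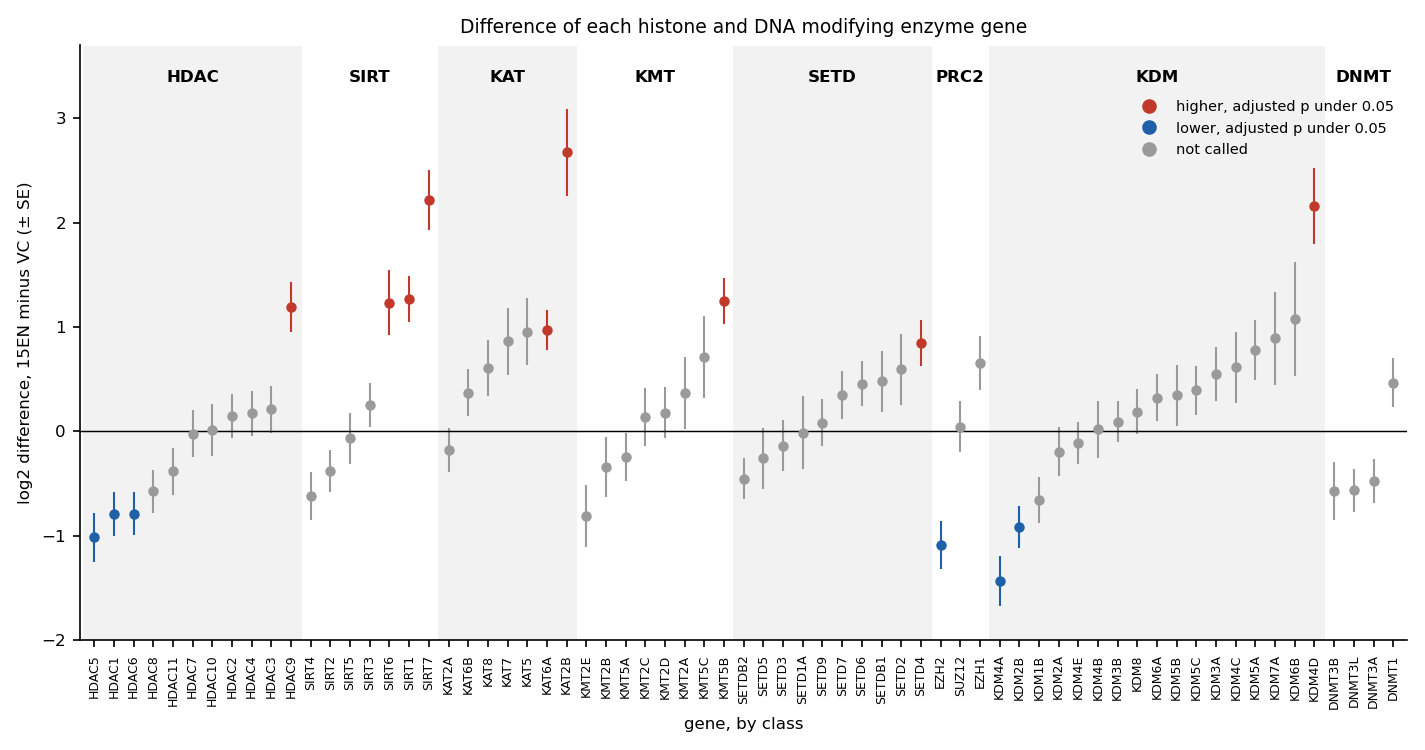
Log2 difference (15EN minus VC, y axis, ± SE of the limma fit) of each of the 67 enzyme genes, ordered within class along the x axis; red and blue points passed an adjusted p of 0.05 and grey ones did not. Calls are spread over 7 of the 8 classes, from KDM4A at -1.44 to KAT2B at 2.67, and all 4 DNMT genes are grey.

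Promoters, 250 bases before to 50 after the start, were matched by symbol in RefSeq (build GRCh38.p14) for 61 of the 67 genes, 12 of them called. They are shown for 3 genes that were lower and 2 that were higher because all 5 matched promoters of lower genes held a CCAAT box, the element bound by NF-Y. Letters CCAAT, or ATTGG for the other strand, are in capitals, and a match is only a match of letters.
HDAC1 (chr1:32291833-32292132, plus strand): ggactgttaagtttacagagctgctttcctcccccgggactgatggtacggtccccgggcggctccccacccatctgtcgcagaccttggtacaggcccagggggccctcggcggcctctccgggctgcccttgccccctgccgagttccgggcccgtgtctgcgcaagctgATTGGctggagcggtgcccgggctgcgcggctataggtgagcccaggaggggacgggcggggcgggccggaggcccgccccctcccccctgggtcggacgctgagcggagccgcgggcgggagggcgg
EZH2 (chr7:148884242-148884541, minus strand): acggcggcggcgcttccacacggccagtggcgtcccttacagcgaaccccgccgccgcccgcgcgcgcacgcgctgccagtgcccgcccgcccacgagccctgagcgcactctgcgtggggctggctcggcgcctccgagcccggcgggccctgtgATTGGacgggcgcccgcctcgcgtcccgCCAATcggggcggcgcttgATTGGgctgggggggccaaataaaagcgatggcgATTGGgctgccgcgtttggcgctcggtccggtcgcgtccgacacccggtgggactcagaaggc
KDM4A (chr1:43649899-43650198, plus strand): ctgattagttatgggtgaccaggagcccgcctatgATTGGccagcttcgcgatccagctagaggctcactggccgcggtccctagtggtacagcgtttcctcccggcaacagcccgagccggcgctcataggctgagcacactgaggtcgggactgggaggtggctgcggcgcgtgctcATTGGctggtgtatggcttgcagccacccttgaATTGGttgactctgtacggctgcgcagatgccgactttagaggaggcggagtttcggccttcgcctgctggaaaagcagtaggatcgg
SIRT1 (chr10:67884406-67884705, plus strand): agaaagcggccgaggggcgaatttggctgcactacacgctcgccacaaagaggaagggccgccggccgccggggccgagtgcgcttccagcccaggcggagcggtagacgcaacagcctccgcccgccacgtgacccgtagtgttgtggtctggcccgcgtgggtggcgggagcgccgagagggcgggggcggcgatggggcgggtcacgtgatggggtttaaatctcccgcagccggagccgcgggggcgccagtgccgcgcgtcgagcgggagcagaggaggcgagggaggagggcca
SIRT6 (chr19:4182514-4182813, minus strand): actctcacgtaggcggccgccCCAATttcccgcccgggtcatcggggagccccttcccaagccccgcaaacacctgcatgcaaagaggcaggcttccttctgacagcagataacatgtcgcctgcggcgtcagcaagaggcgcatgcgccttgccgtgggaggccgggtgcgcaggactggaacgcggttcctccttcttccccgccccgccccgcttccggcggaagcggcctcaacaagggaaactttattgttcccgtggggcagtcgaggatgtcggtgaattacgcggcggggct
The EZH2 window held 4 CCAAT boxes, KDM4A 3, HDAC1 and SIRT6 1 each, and SIRT1 0. Of those not shown, HDAC6 held 2 and KDM2B 1 among lower genes, and HDAC9 2 and KDM4D 1 among higher ones. KAT2B, KMT5B and SETD4, also higher, held 0. No promoter was matched for HDAC5, the remaining lower gene, or for SIRT7 and KAT6A.

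Over matched promoters a CCAAT box stood in 5 of 5 lower and 3 of 7 higher enzyme genes, in 36.1% of the 61 and in 36.4% of 14250 promoters of tested genes (35.7% of all 27305 in the table). Over all tested genes the share was 38.1% for lower, 38.2% for higher and 36% for uncalled genes, so lower and higher genes held it about equally often. On both strands, 6 other motifs were searched, some of which can overlap each other. The GC box GGGCGG was in 67.2% of the enzyme promoters (59.5% of those of tested genes, 44.6% of all), with 4 matches in SIRT1 and 6 in HDAC1. The E-box CACGTG was in 13.1% (8.69% and 7.43%), with 2 matches in SIRT1, and the ETS motif CCGGAAG in 19.7% (14.3% and 10.7%). The NRF1 motif was in 13.1% (8.84% and 6.28%), the CRE TGACGTCA in 1.64% (2.62% and 1.98%) and the E2F forms TTTCCCGC, TTTCGCGC, TTTGCCGC and TTTGGCGC together in 9.84% (4.44% and 3.33%). EZH2 and SIRT6 each held 1 E2F form and 1 NRF1 match.

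Zinc-dependent deacetylases moved in both directions, 1 higher and 3 lower of 11 (9.09% and 27.3%, against 12.3% and 9.09% of all genes). HDAC1, the catalytic subunit of the SIN3, NuRD and CoREST corepressors, had log2 signals of 11.50, 11.48 and 11.29 in 15EN replicates 1, 2 and 3 and of 12.33, 12.01 and 12.30 in VC. Every 15EN array lay below every VC array. The difference was -0.79 ± 0.21 (1.73-fold lower, adjusted p = 0.0207). HDAC2, its closest relative in the same complexes, stayed between 13.34 and 13.81 on all 6 arrays (0.14 ± 0.21, 95% interval -0.33 to 0.61, adjusted p = 0.716). HDAC3, the enzyme of the NCOR complex, differed by 0.21 ± 0.22 (-0.29 to 0.71, adjusted p = 0.589) with overlapping groups. HDAC8, which acts on the cohesin subunit SMC3, lay lower on every 15EN array (9.30, 9.62 and 9.54 against 10.09, 10.15 and 9.94) but was not called, at -0.58 ± 0.20 (adjusted p = 0.0733). Calls were made after quantile normalization (0.0397), after removal of a brightness trend (0.0353) and without 15EN replicate 3 (0.0494).

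The class IIa enzymes, corepressors that shuttle between nucleus and cytoplasm on phosphorylation, split. HDAC9 was at 13.99, 14.42 and 14.63 in 15EN and 13.07, 13.40 and 12.99 in VC, a rise of 1.19 ± 0.24 (2.29-fold, adjusted p = 0.00577). HDAC5 was at 8.36, 8.89 and 8.84 in 15EN and 9.64, 9.99 and 9.52 in VC, a difference of -1.02 ± 0.24 (2.02-fold lower, adjusted p = 0.0121). The groups were apart for both genes, in opposite directions. HDAC4 (0.17 ± 0.22) and HDAC7 (-0.02 ± 0.23) were not called. HDAC6, the cytoplasmic deacetylase of α-tubulin, was at 9.86, 9.93 and 10.01 in 15EN and 10.91, 10.68 and 10.57 in VC (-0.79 ± 0.20, 1.73-fold lower, adjusted p = 0.0196). HDAC10, a polyamine deacetylase, and HDAC11 were dim on all 6 arrays and not called.

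The calls of the 3 lower deacetylases depended on single arrays. HDAC6 lost its call when 15EN replicate 1 or 2, VC replicate 1 or VC replicate 2 was left out (adjusted p = 0.0541 to 0.0833). HDAC1 lost it without VC replicate 1 (0.0809) or 3 (0.0832) and HDAC5 without VC replicate 2 (0.0665), while HDAC9 passed whichever array was left out. On the hybridization-control scale HDAC1 (0.076) and HDAC6 (0.079) changed sign against 0 and HDAC5 was at -0.15, all well under the 0.88 of the median gene there.

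Sirtuins couple deacylation to the NAD level. The 3 nuclear members were called higher, 42.9% of the 7 sirtuins, against 12.3% of all genes. Of the 4 cytoplasmic and mitochondrial members (SIRT2 to SIRT5, -0.62 to 0.25) 0 were called by limma, with 1, SIRT4, at an unadjusted p under 0.05. SIRT7, a nucleolar H3K18 deacetylase, was at 8.780, 9.003 and 8.279 in 15EN and 6.091, 6.985 and 6.325 in VC. The difference of 2.22 ± 0.29 (adjusted p = 0.000687) had the smallest p of the 67 genes. SIRT7 was dim on the 3 VC arrays, which makes the rise at least 1.88-fold, and it was called under all 19 other settings. SIRT1, which deacetylates p53 and histones, was at 13.56, 13.15 and 13.10 in 15EN and 11.96, 11.87 and 12.17 in VC (1.27 ± 0.22, 2.41-fold, adjusted p = 0.00294).

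SIRT6, a deacetylase of H3K9 and H3K56 in DNA repair and telomere chromatin, was at 7.65, 7.88 and 6.69 in 15EN and 6.44, 5.96 and 6.12 in VC. The difference was 1.24 ± 0.31 (adjusted p = 0.0172), with SIRT6 dim on the VC arrays and 15EN replicate 3. Its 15EN mean of 7.41 lay under the mean limit for dim in VC (7.78), so no least size of a rise can be given. SIRT6 lost its call when 15EN replicate 1 or 2, VC replicate 2 or VC replicate 3 was left out (0.0636 to 0.0808). The median over the nuclear members was 1.60, 1.91 and 0.92 in the differences of replicates 1, 2 and 3. SIRT4, a mitochondrial acyl hydrolase dim on all arrays, differed by -0.62 ± 0.23 (adjusted p = 0.0851), and SIRT2, a tubulin deacetylase, by -0.38 ± 0.20 (0.228), both below VC on every array. SIRT3, the main mitochondrial deacetylase, differed by 0.25 ± 0.21 (0.481) and SIRT5, a desuccinylase, by -0.07 ± 0.24 (0.896).

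**Figure D2:**
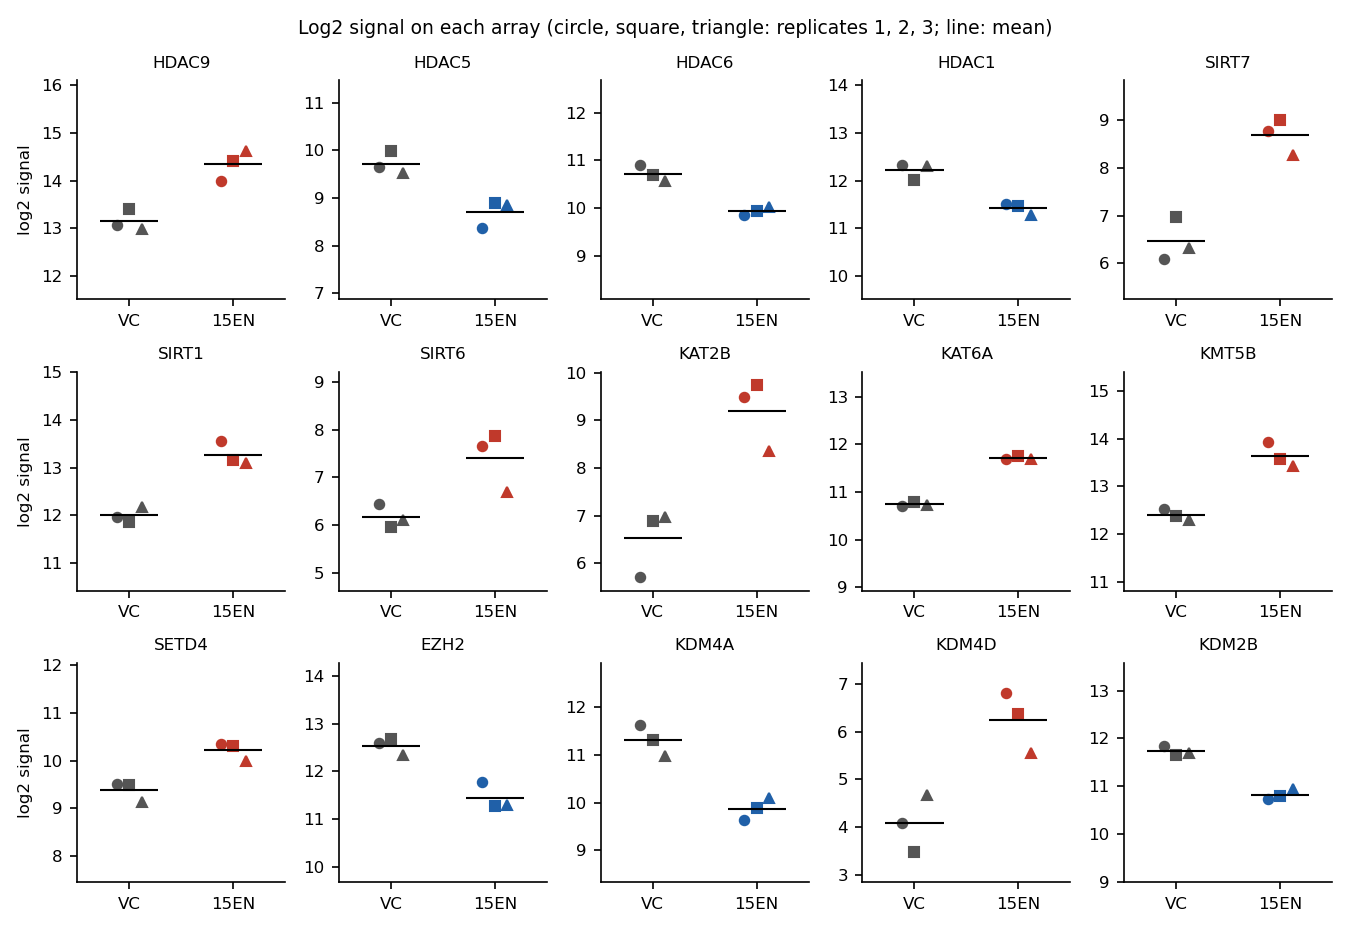
Log2 signal (y axis, each panel 4.6 units high) of the 15 called genes on the 3 VC (grey) and 3 15EN arrays (red higher, blue lower); shapes mark replicates 1, 2 and 3 and lines the group means. The groups are apart in every panel. The 15EN triangle (replicate 3) is nearest to VC in every panel but those of HDAC1, HDAC5, HDAC9 and EZH2.

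Lysine acetyltransferases had the highest median of the 8 classes. Of 7 genes 2 were called, both higher (28.6%, against 12.3% of all genes). Differences above 0 numbered 6 of 7, and over all genes 9060 of 17687. The median was 0.86 (1.00, 0.96 and 0.79 in replicates 1, 2 and 3). KAT2B (PCAF), the alternative catalytic subunit of the SAGA and ATAC coactivators, was at 9.496, 9.740 and 8.358 in 15EN and 5.705, 6.897 and 6.970 in VC. That was the largest difference of the 67 genes, 2.67 ± 0.42 (adjusted p = 0.00171). Since KAT2B was dim on the 3 VC arrays, its rise is given as at least 2.67-fold, the 15EN mean over the limit for dim. KAT2A (GCN5), which takes the same place in those complexes, differed by -0.18 ± 0.21 (-0.65 to 0.30, adjusted p = 0.639). KAT6A (MOZ), of the MYST family, was at 11.70, 11.75 and 11.68 in 15EN and 10.70, 10.80 and 10.72 in VC (0.97 ± 0.19, adjusted p = 0.00563), with little spread in either group (SD 0.04 and 0.05, n = 3 each).

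The other MYST acetyltransferases had differences above 0 that were not called, and for KAT5, KAT7 and KAT8 the groups overlapped. KAT5 (TIP60), which acetylates histones and ATM at DNA breaks, was at 9.52, 10.13 and 8.99 in 15EN and 8.54, 9.03 and 8.20 in VC (0.96 ± 0.32, adjusted p = 0.058). Replicate number as a block in the fit brought it past the threshold (0.0101), as did leaving out 15EN replicate 3 (1.23 ± 0.28, 0.00702). KAT7 (HBO1), an acetylase of H3K14 at replication origins, differed by 0.86 ± 0.32 (0.087; 0.0327 with the block), and 15EN replicate 3 (10.70) lay well below replicates 1 (11.87) and 2 (11.87). KAT8 (MOF), the H4K16 acetylase, differed by 0.61 ± 0.27 (0.144), with -0.11 between the arrays of replicate 3, and KAT6B (MORF) by 0.37 ± 0.22 (0.292). On the 3 VC arrays and 1 15EN array KAT8 was dim. The class median over that of all genes was 0.85, 1.03 without 15EN replicate 3 and 0.63 without 15EN replicate 1 or 2.

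**Figure D3:**
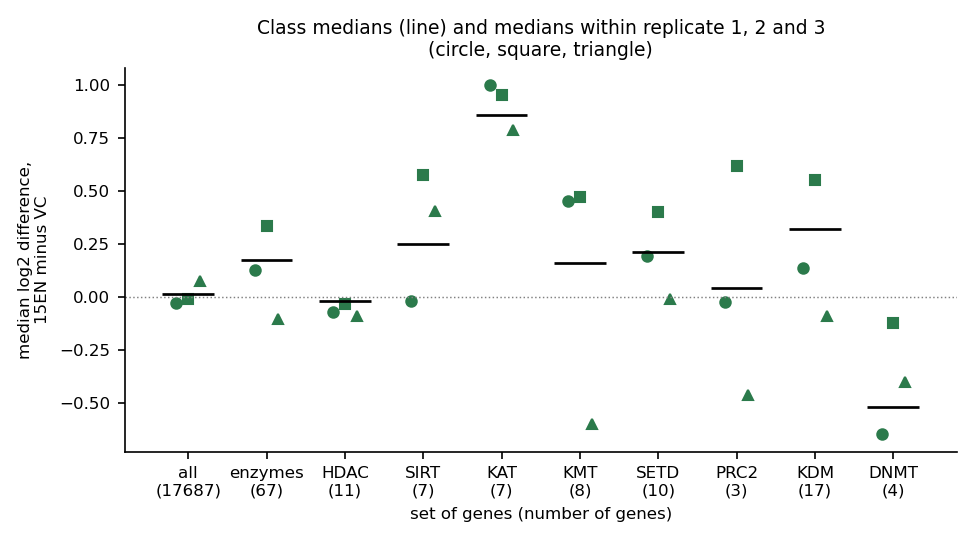
Median log2 difference (y axis) over all genes, over the 67 enzyme genes and over each class (x axis, number of genes in brackets): lines use group means and symbols the same-numbered arrays of replicates 1, 2 and 3. The KAT medians lie between 0.79 and 1.00 in all 3 replicates, whereas the KMT median is 0.45 and 0.47 in replicates 1 and 2 and -0.60 in replicate 3.

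Of the 8 KMT genes 1 was called, in the higher direction (12.5%, against 12.3% of all genes). KMT5B, which makes H4K20 dimethylation in heterochromatin and at origins, was at 13.93, 13.57 and 13.43 in 15EN and 12.52, 12.38 and 12.29 in VC (1.25 ± 0.22, 2.38-fold, adjusted p = 0.00294). The monomethylase KMT5A, which acts before it, differed by -0.25 ± 0.23 (0.524), and KMT5C, the other dimethylase, by 0.71 ± 0.39 (0.254) at mostly dim levels. The large MLL proteins that methylate H3K4, KMT2A to KMT2D, differed by -0.34 to 0.37 with 0 called, and KMT2B was dim on all 6 arrays. KMT2A was at 12.67, 13.08 and 11.59 in 15EN and 12.09, 12.25 and 11.91 in VC (0.37 ± 0.34, 95% interval -0.40 to 1.13, adjusted p = 0.531). Its 15EN arrays thus lay on both sides of VC, and it passed without 15EN replicate 3 (0.79 ± 0.22, 0.0193). KMT2E, a relative without known methylase activity, differed by -0.81 ± 0.30 (0.0792). On its arrays it read 12.32, 13.19 and 12.18 in 15EN and 13.32, 13.70 and 13.11 in VC, so the groups overlapped slightly. Calls came with the block (0.0244), quantile normalization (0.0335), removal of a brightness trend (0.0348) and without 15EN replicate 2 (0.0202).

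SETD genes had 1 call among 10, in the higher direction (10%, against 12.3% of all genes). SETD4, a less studied SET domain protein, was at 10.360, 10.313 and 10.002 in 15EN and 9.502, 9.499 and 9.137 in VC (0.85 ± 0.22, adjusted p = 0.0196). Leaving out 15EN replicate 1 or 2, VC replicate 2 or VC replicate 3 ended its call (0.0561 to 0.0923). SETD2, the H3K36 trimethylase, was at 11.75, 11.86 and 10.46 in 15EN and 10.76, 10.85 and 10.68 in VC. It was higher in 2 arrays and lower in the third, 0.59 ± 0.34 in all (0.273) and 1.04 ± 0.20 without 15EN replicate 3 (0.00253). SETDB1, the H3K9 trimethylase that silences retroelements, differed by 0.48 ± 0.29 (0.307) and by 0.77 ± 0.24 without that array (0.0312). Its relative SETDB2 was lower on every 15EN array but not called (-0.46 ± 0.20, 0.138). SETD1A, a COMPASS H3K4 methylase, differed by -0.01 ± 0.35 (95% interval -0.79 to 0.77).

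Polycomb repressive complex 2 writes H3K27 methylation through either EZH2, the form of dividing cells, or EZH1, that of resting cells. EZH2 was at 11.78, 11.27 and 11.29 in 15EN and 12.59, 12.67 and 12.34 in VC (-1.09 ± 0.23, 2.13-fold lower, adjusted p = 0.00714), and passed whichever array was left out. On the hybridization-control scale it was at -0.22, not called against 0. EZH1 was at 10.18, 10.78 and 10.99 in 15EN and 10.17, 10.06 and 9.76 in VC (0.66 ± 0.26, 0.102), above VC on every array, though in replicate 1 by only 0.01. It passed without 15EN replicate 1 (0.89, 0.0408). The scaffold SUZ12 differed by 0.04 ± 0.24 (95% interval -0.50 to 0.59).

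Demethylases had 1 higher and 2 lower of 17 (5.88% and 11.8%, against 12.3% and 9.09% of all genes). Differences above 0 numbered 12 of 17, and over all genes 9060 of 17687. The median was 0.32 (0.14, 0.56 and -0.09 in replicates 1, 2 and 3). Over the median gene this was 0.31, and 0.14 and 0.15 without 15EN replicates 1 and 2. KDM4A, which removes H3K9 and H3K36 trimethylation, was at 9.63, 9.90 and 10.09 in 15EN and 11.63, 11.31 and 10.98 in VC (-1.44 ± 0.24, 2.71-fold lower, adjusted p = 0.00241). KDM2B, an H3K36 demethylase that brings a variant Polycomb complex to CpG islands, was at 10.72, 10.78 and 10.93 in 15EN and 11.84, 11.65 and 11.69 in VC (-0.92 ± 0.20, adjusted p = 0.00885). Both passed whichever array was left out, and on the hybridization-control scale were at -0.57 and -0.05, not called against 0. KDM4D, an H3K9 demethylase, was at 6.81, 6.37 and 5.56 in 15EN and 4.09, 3.48 and 4.68 in VC (2.16 ± 0.37, adjusted p = 0.00267). It was dim on all 6 arrays, the only called gene of which this holds, so its size is uncertain. KDM2A, KDM3B, KDM4B and KDM4E differed by -0.19 to 0.09 and were not called, with KDM4B and KDM4E dim on all 6 arrays.

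Other demethylases were higher in 15EN replicates 1 and 2. KDM6B (JMJD3), an inducible H3K27 demethylase, was at 12.64, 13.99 and 11.18 in 15EN and 11.48, 11.72 and 11.38 in VC. With replicate 3 below VC the difference was 1.08 ± 0.55 (95% interval -0.13 to 2.29, adjusted p = 0.208), and without it 1.79 ± 0.34 (0.00245). KDM6A (UTX), its relative, differed by 0.32 ± 0.22 (0.374). Among H3K4 demethylases KDM5A differed by 0.78 ± 0.29 (0.0819; 0.0375 with the block), above VC on every array, KDM5C by 0.39 ± 0.23 (0.289), and KDM5B, at 15.57, 15.59 and 14.51 against 14.89, 14.85 and 14.89, by 0.35 ± 0.29 (0.483). KDM7A, of H3K9 and H3K27, differed by 0.89 ± 0.45 (0.201; 0.0346 with the block). KDM1B, a flavin-dependent H3K4 demethylase, went the other way (11.44, 11.48 and 11.95 against 12.27, 12.35 and 12.21) and fell short of a call (-0.66 ± 0.22, 0.0572). Calls came after quantile normalization (0.0366), after removal of a brightness trend (0.0297) and without 15EN replicate 3 (0.00896).

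DNA methyltransferases had 0 calls among 4 by limma, and 2 of the 4 had an unadjusted p under 0.05 (32.2% of all genes). In all 4 the groups did not overlap, 3 below and 1 above, as in 36.3% of all genes. The de novo enzyme DNMT3A was at 12.10, 12.47 and 12.18 in 15EN and 12.85, 12.59 and 12.72 in VC (-0.47 ± 0.21, 95% interval -0.94 to -0.01 before adjustment, adjusted p = 0.149). DNMT1, the maintenance enzyme, was at 9.21, 8.96 and 8.93 in 15EN and 8.84, 8.19 and 8.68 in VC (0.47 ± 0.23, 0.205). DNMT3B (-0.57 ± 0.28, 0.191) and its cofactor DNMT3L (-0.57 ± 0.21, 0.081) were dim on all 6 arrays.

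Among the 52 uncalled genes, differences ran from -0.81 to 1.08, and for 33 the 95% interval (unadjusted) stayed within 1 log2 unit, that is 2-fold, of 0. For the other 19 a 2-fold difference lay within the interval. Of the 52, 9 were dim on all 6 arrays, where an interval on the signal does not bound the difference in RNA. HDAC10, HDAC11, KDM4B, KDM4E, KDM8 and KMT2B were such genes with intervals within 1 log2 unit. Grouped by mark, H3K4 methylases (6 genes) had 0 calls and a median of 0.16 (-0.33 in replicate 3), and H3K4 demethylases (4) 0 calls and 0.37 (0.02). H3K9 methylases (2) had 0 calls and 0.01 (-0.08), and H3K9 demethylases (8) 1 higher, 1 lower and 0.32 (0.02). H3K27 demethylases (2) had 0 calls and 0.70 (0.03), and H4K20 methylases (3) 1 higher and 0.71 (-0.60). In each of these 6 sets the median was lowest in replicate 3, shown in brackets. This did not hold for the 2 H3K36 demethylases, not grouped here (-0.80, -0.27 and -0.60 in replicates 1, 2 and 3). It held for the 3 Polycomb genes (-0.03, 0.62 and -0.46).

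Close relatives, 9 pairs chosen after their values were seen and each with 1 called gene, were set beside each other within each array. This is a description only, since the called gene of each pair already differed between the groups. The log2 ratio of the called gene to its relative changed by -0.94 for HDAC1 over HDAC2, by -1.74 for EZH2 over EZH1, by -2.05 for KDM4A over KDM4C and by 0.60 for KAT6A over KAT6B. It changed by -0.72 for KDM2B over KDM2A, by -1.19 for HDAC5 over HDAC4 and by 1.02 for HDAC9 over HDAC4. For KAT2B over KAT2A and KMT5B over KMT5C no change is given, since KAT2B was dim in VC and KMT5C was dim on 5 of 6 arrays.

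When 15EN replicate 3 was left out, 21 of the 67 genes were higher and 9 lower, 44.8% against 30.9% of all genes in the same fit, and all 15 original calls were kept. The 15 genes added were KDM6B, KDM7A, KAT7, KAT5, KMT5C, KDM5A, SETD2, KAT8, KDM3A, KMT2A, SETDB1 and KDM5B among the higher and KDM1B, DNMT3L and HDAC8 among the lower. In 14 of them, all but HDAC8, 15EN replicate 3 lay nearer to the VC mean than both other 15EN arrays, and in 7 of those it lay on the other side of that mean, which the way these 15 were found favours. Leaving out any other single array gave 7 to 9 higher and 4 to 6 lower genes, 16.4% to 19.4% against 12.8% to 15.2% of all genes.

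**Figure D4:**
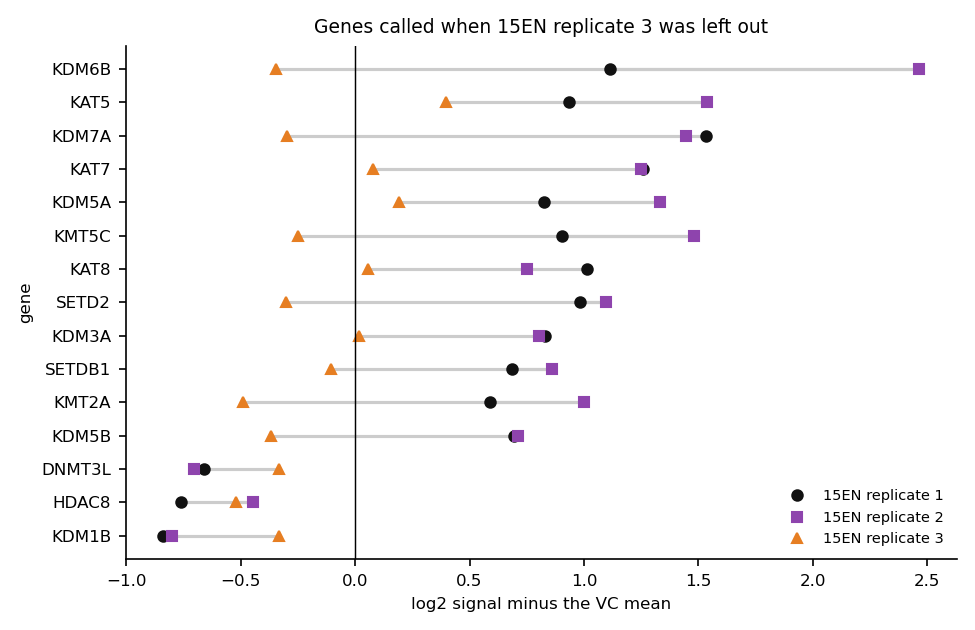
Log2 signal of each 15EN array minus the VC mean (x axis) for the 15 genes (y axis) called only when 15EN replicate 3 was left out. Triangles (replicate 3) are nearest to 0 or on the other side of it for most genes, with KDM6B at -0.34 in replicate 3 and at 1.11 and 2.46 in replicates 1 and 2.

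Most of these enzymes work in complexes, and partners were followed through lists from general knowledge, written with earlier results of these data known. Of 42 measured acetyltransferase complex genes with p300 and CBP, 11 were higher and 1 lower (26.2% and 2.38%, against 12.3% and 9.09% of all genes), with a median of 0.38. JADE1, a scaffold of the KAT7 complex (2.50 ± 0.30, adjusted p = 0.000497), SGF29, the H3K4 methyl reader of SAGA (1.51 ± 0.23, 0.00149), the acetyltransferase CREBBP (1.10 ± 0.21, 0.00449) and the SAGA subunit SUPT20H (0.95 ± 0.20, 0.00804) rose, and each passed whichever array was left out. SGF29 was dim on the 3 VC arrays, so the size of its rise is uncertain. The higher count was 5 without VC replicate 2 or 3, 7 without 15EN replicate 1 or 2, 8 without VC replicate 1 and 14 without 15EN replicate 3. The lower count was 2 without 15EN replicate 3 and 0 without any other array. Of 35 HDAC corepressor genes 5 were higher and 2 lower (14.3% and 5.71%). That is 20% called, against 21.4% of all genes. SAP18 of SIN3 (1.44 ± 0.23, 0.00204), GPS2 of NCOR (1.29 ± 0.26, 0.0055) and RCOR1 of CoREST (1.34 ± 0.26, 0.00554) rose and TBL1X of NCOR fell (-1.74 ± 0.31, 0.00323). The higher count was 12 without 15EN replicate 3 and 3 without any other array, and the lower count 1 without VC replicate 2. The background of such counts, for this and every other list, moved too. Of all genes, 18.2% were higher and 12.7% lower without 15EN replicate 3. Without any other array the shares were 7.36% to 8.47% higher and 5.48% to 6.86% lower.

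Among 13 COMPASS subunits, which serve the H3K4 methylases, 1 was higher and 3 lower (7.69% and 23.1%, against 12.3% and 9.09% of all genes). They were HCFC1 (-1.54 ± 0.30, 0.00491), PSIP1 (-1.11 ± 0.25, 0.00991), PAXIP1 (-0.63 ± 0.20, 0.0488; 0.24 on the hybridization-control scale) and CXXC1 (1.16 ± 0.31, 0.0223). PAXIP1 lost its call whichever array was left out (0.0545 to 0.154) and with the block (0.0627). CXXC1 kept its call only without 15EN replicate 3, where 3 subunits were higher, against 0 without any other array. Of 11 Polycomb partners 3 were higher and 1 lower (27.3% and 9.09%). AEBP2 was up (1.17 ± 0.22, 0.00416) and JARID2 down (-1.05 ± 0.26, 0.0168). JARID2 lost its call without VC replicate 1 or 3 (up to 0.0719), and 2 genes were lower with the block. LCOR (0.86 ± 0.25, 0.0348) and PHF1 (0.75 ± 0.24, 0.0471) also rose, but kept their calls only without 15EN replicate 3, where 5 partners were higher, against 1 without any other array.

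Histone methylases outside the name rule had 3 higher and 4 lower of 27 (11.1% and 14.8%, against 12.3% and 9.09% of all genes). The arginine methylase PRMT2 fell by 2.31 ± 0.24 (adjusted p = 0.000289), the lysine methylases SMYD2 by 1.45 ± 0.23 (0.00183) and NSD2 by 1.11 ± 0.23 (0.00654), and PRMT5, which makes symmetric dimethylarginine, rose by 1.51 ± 0.22 (0.00133). These 4 passed whichever array was left out, and the higher count of the list was 1 without VC replicate 3 and 5 without 15EN replicate 3. Of 10 other JmjC-type proteins 3 were higher and 0 lower (30% and 0%). They were TYW5 (2.16 ± 0.32, 0.00127), the demethylase PHF8 (1.23 ± 0.28, 0.0105) and the asparagine hydroxylase HIF1AN (0.70 ± 0.20, 0.0305), whose call was kept only without 15EN replicate 3. That fit had 5 higher, and the fits without another array 2. Of 13 genes of DNA methylation, its oxidation and its readers 0 were higher and 1 lower (0% and 7.69%). The lower one was UHRF1, which brings DNMT1 to replicated DNA (-1.37 ± 0.29, 0.00765). The higher count was 1 without 15EN replicate 1 or 3.

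**Figure D5:**
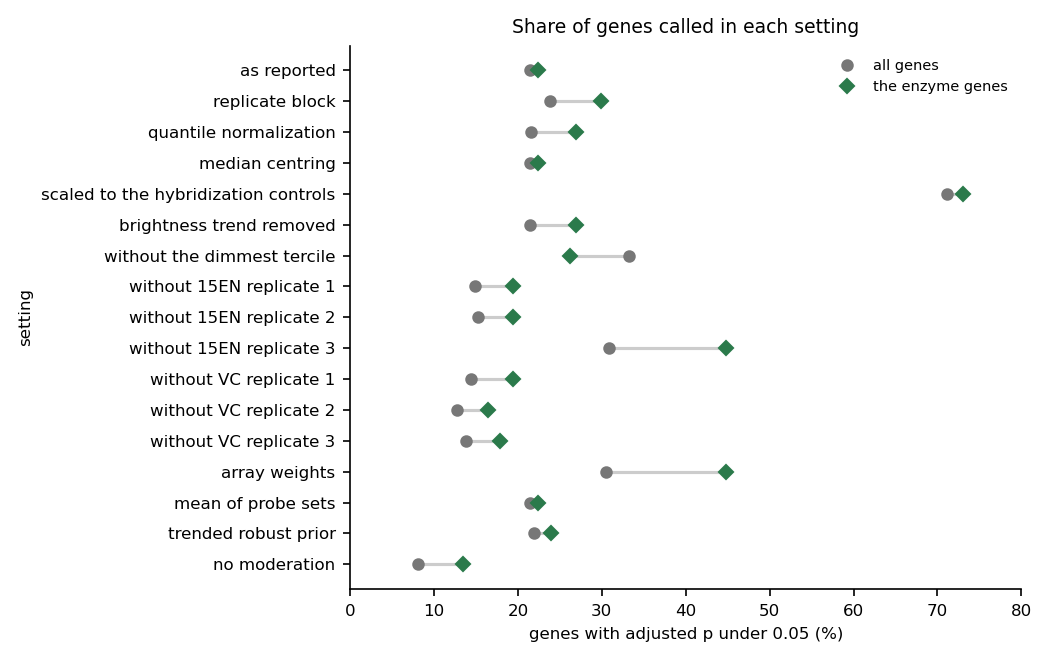
Share of genes with an adjusted p under 0.05 (x axis, %) among all genes (grey circles) and the enzyme genes (green diamonds) in the fit as reported and in 16 other settings (y axis), leaving aside those without both arrays of a replicate number. The shares are 22.4% and 21.4% as reported and furthest apart without 15EN replicate 3 (44.8% and 30.9%) and with array weights (44.8% and 30.5%).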

How the data were processed

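The authors deposited 1 log2 signal per probe set and array (24351 probe sets, of which 21448 are of genes), made with the Transcriptome Analysis Console per the submitters' processing notes. The sources used here do not give its version, summarization, normalization or build, and the log2 scale was judged from the deposited values. Names came from the platform annotation (17709 gene probe sets with 1 symbol, 0 with several, 3739 unnamed here). Looking its Entrez identifiers up in RefSeq GRCh38.p14 changed 0 symbols. The probe set of highest mean was kept per gene (22 set aside). Dim probe sets were kept. With 3 arrays a group, their number limits the precision.

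The test was limma's (version 3.58.1, R 4.3.3; lmFit, then eBayes, with group as the only term, two-sided, Benjamini-Hochberg over 17687 genes), checked on simulated data. The enzyme genes, classes and lists were chosen with earlier results of these data known, the grouping by mark, the pairs of relatives and the marked motif after values were seen here. Values are given for called genes, a core set, the uncalled gene of smallest p per class and up to 4 called genes per partner list. Same-numbered arrays share a passage in the titles (every description names passage 33), and their deviations from group means correlated at 0.229, 0.162 and 0.133, against -0.138 to -0.0165 otherwise, so numbers were taken as pairs and a fit with the number as a block was an alternative. The others were quantile normalization, median centring, scaling to the 4 hybridization controls, loess removal of a brightness trend, a filter on the dimmest tercile, leaving out arrays, array weights, averaging the probe sets of a gene, a trended robust prior and no moderation.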

Additional observations from a re-analysis of the deposited data

How the results depend on the processing

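The 9 higher and 6 lower genes became 13 and 7 when replicate number was a block in the fit, which kept all 15 calls and added KAT5, KAT7, KDM5A, KDM7A and KMT2E. Scaling to the hybridization controls gave 49 higher and 0 lower genes (12587 calls over all genes). Array weights gave 19 and 11, and a fit without moderation 4 higher and 1426 calls over all genes. When 1 array, or both arrays of a replicate number, were left out, the higher count ran from 2 to 21, the lower from 0 to 9 and the count over all genes from 1021 to 5467; with both arrays of a number gone, 2 arrays per group remain. Class medians, taken over that of all genes, ran in these settings from -0.21 to 0.13 for HDAC (as reported -0.03) and from 0.61 to 1.03 for KAT (0.85). Without the dimmest tercile, which leaves out 6 of the 67 genes, the HDAC median was -0.27 and the DNMT median -0.066 (-0.53 as reported). The medians of the other classes moved by less than their spread over replicates in every setting tried, a wide spread for most of them: leaving out arrays gave 0.12 to 0.48 for KDM and -0.07 to 0.49 for KMT. Against 0 on the hybridization-control scale HDAC1 (0.076), HDAC6 (0.079) and the partner PAXIP1 (0.24) changed sign without being called, and HDAC7 (0.85), KAT2A (0.69), KDM2A (0.68), KDM4E (0.76), KMT5A (0.62), SETD1A (0.86), SETD3 (0.73) and SIRT5 (0.80) became called higher, all below the 0.88 of the median gene. Of the values of single enzyme genes over all settings, 1099 kept their side of the threshold. These kept direction too, or turned it by a shift under 1 standard error while uncalled. A further 16, uncalled in both fits, turned direction by a larger shift. Another 50 kept direction and lost a call, and 92 kept direction and gained one. The last 10, those just named without PAXIP1, turned direction and lost or gained a call. The cause of these shifts was not tested.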
